A study of Gasterosteus aculeatus with 12 samples.

Results

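*SLC12A1* (ENSGACG00000016765), *SLC12A3* (ENSGACG00000002419) and *ATP1B1 (2 of 2)* (ENSGACG00000015312) are 3 of the 20860 genes measured in the kidney of threespine stickleback (*Gasterosteus aculeatus*). They were chosen by name, as genes of sodium transport across the kidney tubule. Per the study's methods, each library was made from the kidney of 1 individual adult female, caught in the wild and acclimated for 30 days. SW33K were saltwater fish of coastal origin kept at a salinity of 33 g/L, and FW00K, FW11K and FW33K were freshwater lake fish kept at 0, 11 and 33 g/L, with 3 replicates in each of the 4 treatments. No genotype was altered, and each population came from 1 place, so a difference between SW33K and FW33K is one between these samples of fish. The deposited values are FPKM, the fragments of a gene scaled to the length of its exons and to the mapped fragments of the library, which set genes of unequal length on one scale within a library. The alignment allowed 3 mismatches in SW fish and 2 in FW fish, so population and alignment setting cannot be told apart. Treatments are those of the sample titles, which match the column names, and no value in the table checks them independently, so each direction below rests on these labels.

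The kidney tubule takes salt back from the filtrate in steps. *SLC12A1* encodes NKCC2, the sodium, potassium and chloride cotransporter of the luminal membrane in the thick ascending limb of mammals and the early distal tubule of fish, and the target of loop diuretics. *SLC12A3* encodes NCC, the sodium chloride cotransporter of the next stretch of distal tubule and the target of thiazides. *ATP1B1* encodes a beta subunit of the Na+/K+-ATPase, the pump of the basolateral membrane whose sodium gradient drives both cotransporters, and which is used in every tubule segment. A fish in fresh water makes much dilute urine and reclaims salt from it, whereas a fish in sea water makes little urine.

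By their means, all 3 genes were highest in freshwater fish at 0 g/L and lower in all other treatments, but they did not share one pattern over salinity. *SLC12A1* was lowest at 11 g/L, at a mean 12.7-fold below FW00K, and *SLC12A3* and *ATP1B1* were lowest in FW33K, 6.22-fold and 6.75-fold below FW00K. *ATP1B1* was the most abundant of the 3 in each of the 12 libraries, at rank 102 to 374 of all genes. Counts of genes below are over the 15503 whose mean level reached 1 FPKM. These were tested with limma on log2(FPKM + 1) in a single fit of all 12 libraries, and a gene was called at a Benjamini-Hochberg adjusted p under 0.01. Changes are on the log2(FPKM + 1) scale, with their SE.

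Libraries differed in ways that touch each of these values. Most genes stood lower in FW33K: the median change of all tested genes was -1.20 in FW33K minus FW00K, -0.34 in FW11K minus FW00K, -0.82 in FW33K minus FW11K and 0.47 in SW33K minus FW33K. The 20 most abundant genes took 28.1% to 41.8% of the FPKM sum in the FW33K libraries and 10.8% to 11.9% in FW00K. In SW33K they took 33.1% in replicate 1, against 15.6% and 15.8% in replicates 2 and 3. Since FPKM are shares of a library, changes are also given after median-ratio scaling, which divides each library by the median, over genes, of its ratio to the gene's geometric mean, and leaves a median change of all genes within 0.04 of 0. Replicates 2 and 3 of each treatment lay close together, with Pearson's r across genes of 0.990 to 0.992, against 0.846 to 0.945 for pairs with replicate 1. Whether replicates 2 and 3 are as independent of each other as of replicate 1 was not tested, and p-values are too small if they are not. Leaving out replicate 1 of a treatment leaves only its replicates 2 and 3, so this limit weighs on each such result. Read counts per gene are not in the table, so the number of reads behind each value is unknown. Per the study's supplement, replicate 1 of FW11K and replicate 1 of FW33K had far fewer reads used in mapping than all other libraries. They also had the fewest genes above 0 FPKM, at 18485 and 17644. The part of depth in the values was not tested. Fewer tubule cells and less RNA of a gene per cell cannot be told apart in these whole kidneys.

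*SLC12A1* had 143.4, 143.3 and 143.8 FPKM in FW00K, 19.5, 6.75 and 7.73 FPKM in FW11K, and 7.90, 21.6 and 20.6 FPKM in FW33K. In SW33K it had 18.96, 60.0 and 58.7 FPKM. The 3 FW00K libraries thus stood far above the other 9. On the deposited values they were nearly equal, with a coefficient of variation of 0.177% where the median of tested genes was 17.3%. After median-ratio scaling they ran from 84.8 to 95.9, at a mean of 91.5 ± 5.91. By its means, in FPKM with the SD of 3 libraries, *SLC12A1* ran 144 ± 0.25 in FW00K, 45.9 ± 23.3 in SW33K, 16.7 ± 7.63 in FW33K and 11.3 ± 7.08 in FW11K. The order held after median-ratio scaling. On the deposited values FW33K and FW11K, the neighbours at the low end, overlapped, as did SW33K with FW33K and with FW11K, where replicate 1 of SW33K lay just below replicate 1 of FW11K. After median-ratio scaling SW33K (33.4 to 51.4) lay above both FW33K (16.9 to 32.0) and FW11K (5.48 to 17.9), and these last 2 still overlapped. The share of all tested genes without overlap was not counted on the scaled values.

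*SLC12A3* had 203, 167 and 169 FPKM in FW00K, 36.4, 153 and 156 FPKM in FW11K, and 21.8, 33.0 and 31.8 FPKM in FW33K. In SW33K it had 33.9, 149 and 152 FPKM. In both FW11K and SW33K, replicate 1 lay near the FW33K level and the other replicates lay just under the FW00K level, so the means of these treatments describe none of their libraries. The means were 180 ± 20.3 FPKM in FW00K, 115 ± 68.1 in FW11K, 111 ± 67.1 in SW33K and 28.9 ± 6.16 in FW33K. FW11K and SW33K, neighbours in this order, overlapped, and after median-ratio scaling SW33K stood above FW11K. After that scaling replicates 2 and 3 of FW11K (124 and 129) and of SW33K (127 and 133) lay above the FW00K libraries (109 to 120), while replicate 1 of FW11K (33.5) lay below the FW33K libraries (46.6 to 49.4).

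*ATP1B1* had 938, 999 and 983 FPKM in FW00K, 651, 407 and 405 FPKM in FW11K, and 119, 164 and 149 FPKM in FW33K. In SW33K it had 176, 503 and 511 FPKM. The 3 freshwater treatments formed separate steps with no overlap, highest at 0 g/L and lowest at 33 g/L, and the SW33K libraries ran from just above FW33K into the range of FW11K. Its means were 973 ± 31.7 FPKM in FW00K, 488 ± 142 in FW11K, 397 ± 191 in SW33K and 144 ± 23.2 in FW33K, and this order held after median-ratio scaling. The separation of FW11K from FW00K was lost, since replicate 1 of FW11K then stood at 599, against 554 for replicate 1 of FW00K. FW11K and SW33K overlapped. The symbol marks this gene as the second of 2 stickleback copies, and the other copy was not identified here.

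**Figure D1:**
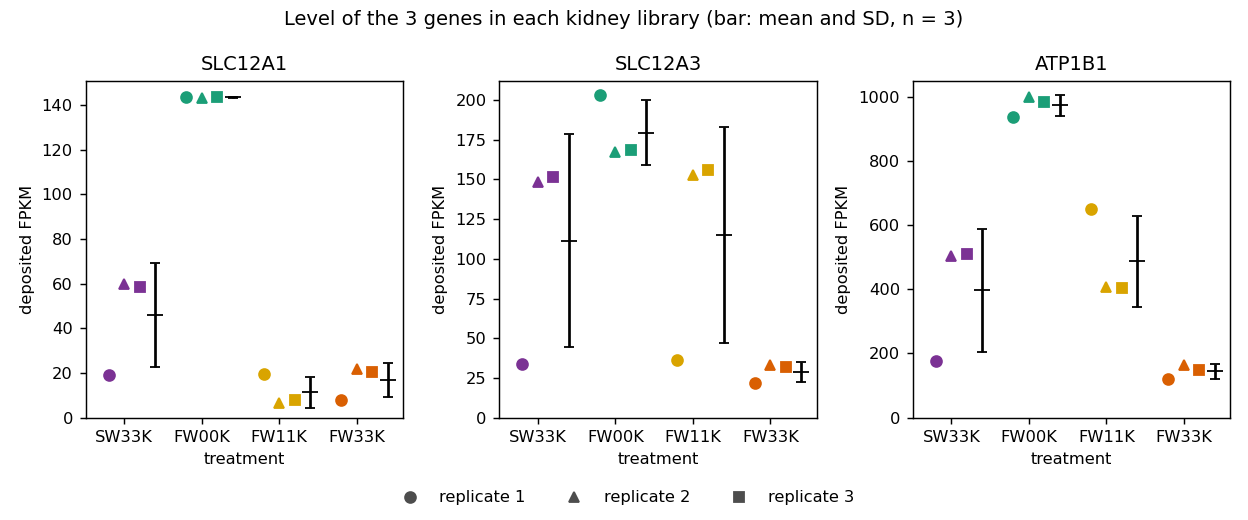
Deposited FPKM (y axis, from 0) of *SLC12A1*, *SLC12A3* and *ATP1B1* in each library, by treatment (x axis), with a shape for each replicate and the mean and SD of 3 libraries as a bar. The 3 FW00K libraries of *SLC12A1* sit at 143.3 to 143.8 FPKM above all others, and replicate 1 of FW11K and of SW33K sits far below replicates 2 and 3 for *SLC12A3*.

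In freshwater fish at 11 g/L, of the 3 genes only *SLC12A1* was called against 0 g/L. It was 12.7-fold lower by the means, with a log2 change of -3.70 ± 0.50 and an adjusted p of 0.00178 in limma. Of the tested genes, 4.17% were called lower in this comparison, and 0.142% had a change below that of *SLC12A1*. After median-ratio scaling, where 3.83% of tested genes were called lower, the change was -3.26 ± 0.38 (adjusted p = 0.000902, limma). *ATP1B1* had a log2 change of -1.03 ± 0.40 (adjusted p = 0.0991) and *SLC12A3* one of -0.90 ± 0.60 (adjusted p = 0.330). On the deposited values all 3 genes had every FW11K library below every FW00K library, as did 37.7% of tested genes. After median-ratio scaling only *SLC12A1* did, and the share of all tested genes that did was not counted on that scale. The changes of *ATP1B1* and *SLC12A3* after that scaling were -0.61 ± 0.26 (adjusted p = 0.109) and -0.48 ± 0.46 (adjusted p = 0.482). The call of *SLC12A1* was lost without replicate 2 or 3 of either treatment (adjusted p = 0.0115 to 0.0133) and with replicates 2 and 3 averaged into 1 sample (log2 change -3.48, adjusted p = 0.0524).

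At 33 g/L, all 3 genes were called lower in freshwater fish than at 0 g/L, in a comparison in which 49.6% of the tested genes were. The log2 change of FW33K minus FW00K was -3.15 ± 0.50 for *SLC12A1* (adjusted p = 0.000310), -2.76 ± 0.40 for *ATP1B1* (adjusted p = 0.000187) and -2.61 ± 0.60 for *SLC12A3* (adjusted p = 0.00258). FW33K libraries lay below FW00K without overlap for all 3, as for 79.6% of tested genes. Each change was larger than the shift of the median gene, and 1.52%, 3.08% and 4.04% of tested genes had a change below that of *SLC12A1*, *ATP1B1* and *SLC12A3*. After median-ratio scaling, where 7.4% of tested genes were called lower, the change was -1.79 ± 0.38 for *SLC12A1* (adjusted p = 0.00486) and -1.36 ± 0.26 for *ATP1B1* (adjusted p = 0.00245). *SLC12A3* was no longer called after that scaling, at -1.23 ± 0.46 (adjusted p = 0.0612), nor without replicate 1 of FW00K (adjusted p = 0.0105) or of FW33K (adjusted p = 0.0132). This comparison and that of 11 with 0 g/L share the FW00K libraries.

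Between 33 and 11 g/L in freshwater fish, of the 3 genes only *ATP1B1* was called. It was 3.38-fold lower by the means in FW33K than in FW11K, with a log2 change of -1.73 ± 0.40 (adjusted p = 0.00521), and 23.4% of tested genes were called lower here. *SLC12A3* was 3.98-fold lower by the means, with every FW33K library below every FW11K library, as for *ATP1B1* and for 63% of tested genes, but its change of -1.72 ± 0.60 did not pass the threshold (adjusted p = 0.0328), and after median-ratio scaling its libraries overlapped (-0.76 ± 0.46, adjusted p = 0.236). Without replicate 1 of FW11K its change on the deposited values was -2.40 (adjusted p = 0.00339). *SLC12A1* had a change of 0.55 ± 0.50 (adjusted p = 0.366) with overlapping libraries, and 94.2% of tested genes had a lower change. After median-ratio scaling *SLC12A1* stood at 1.46 ± 0.38 (adjusted p = 0.0164) and *ATP1B1* lost its call, at -0.75 ± 0.26 (adjusted p = 0.0477). The call of *ATP1B1* was also lost when any 1 of the 6 libraries compared was left out (adjusted p = 0.0108 to 0.0225).

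At the same salinity of 33 g/L, the 3 genes stood higher in saltwater than in freshwater fish, and none was called. The means in SW33K were 2.75-fold those of FW33K for *SLC12A1*, 3.86-fold for *SLC12A3* and 2.75-fold for *ATP1B1*. The log2 changes were 1.36 ± 0.50 (adjusted p = 0.0943), 1.66 ± 0.60 (adjusted p = 0.0899) and 1.31 ± 0.40 (adjusted p = 0.0551), against a median of all genes of 0.47, and 1.04% of tested genes were called higher. After median-ratio scaling they were smaller, at 0.77 ± 0.38 for *SLC12A1* (adjusted p = 0.217), 1.05 ± 0.46 for *SLC12A3* (adjusted p = 0.162) and 0.70 ± 0.26 for *ATP1B1* (adjusted p = 0.103). On the deposited values *SLC12A3* and *ATP1B1* had no overlap between the populations, as had 26.7% of tested genes in this direction. After median-ratio scaling none of the 3 overlapped, with *SLC12A1* at 33.4 to 51.4 in SW33K and 16.9 to 32.0 in FW33K. The share of all tested genes without overlap was not counted on that scale. Of all omissions of 1 library, that of replicate 1 of SW33K gave the largest changes. *SLC12A3* was then called higher at 2.36 (adjusted p = 0.00684) and *ATP1B1* at 1.82 (adjusted p = 0.00105), with *SLC12A1* at 1.89 (adjusted p = 0.0101). The number of genes called in the comparison was 3586 in place of 221. Only replicates 2 and 3, at r = 0.991 to each other, then stood for SW33K, and the spread shared by all treatments changed too. The same omission raised the number called in FW33K minus FW00K, which holds no SW33K library, from 7956 to 9645. Replicate 1 of SW33K held 0.319, 0.226 and 0.347 times the mean of replicates 2 and 3 for *SLC12A1*, *SLC12A3* and *ATP1B1*, and 0.508 times for the median gene.

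Set against freshwater fish at 0 g/L, saltwater fish at 33 g/L had lower deposited values of all 3 genes in every library, as did 56.2% of tested genes, and none of the 3 was called (20.1% of tested genes were called lower). The log2 change of SW33K minus FW00K was -1.79 ± 0.50 for *SLC12A1* (adjusted p = 0.0143), -1.45 ± 0.40 for *ATP1B1* (adjusted p = 0.0134) and -0.96 ± 0.60 for *SLC12A3* (adjusted p = 0.213). After median-ratio scaling it was -1.02 ± 0.38 (adjusted p = 0.0603), -0.66 ± 0.26 (adjusted p = 0.0664) and -0.18 ± 0.46 (adjusted p = 0.790) for these genes in the same order, and the libraries of *SLC12A3* overlapped. On the deposited values the first 2 were called when replicate 1 of FW11K, which is in neither treatment but adds to the shared spread, was left out (adjusted p = 0.00774 and 0.00846). Against freshwater fish at 11 g/L, *SLC12A1* was 4.06-fold higher by the means in SW33K, at 1.91 ± 0.50 (adjusted p = 0.0159) with overlap on the deposited values. After median-ratio scaling its libraries did not overlap, though the share of all tested genes without overlap was not counted on that scale. *SLC12A1* was called there, where 9.5% of tested genes were called higher (2.24 ± 0.38, adjusted p = 0.00158). It was also called on the deposited values without replicate 1 of FW11K (2.34, adjusted p = 0.00370) or of SW33K (2.44, adjusted p = 0.00507). *SLC12A3* and *ATP1B1* had changes of -0.06 ± 0.60 (adjusted p = 0.959) and -0.41 ± 0.40 (adjusted p = 0.489), also with overlap between SW33K and FW11K. In this last comparison 2.19% of tested genes were called higher and 10.5% lower.

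**Figure D2:**
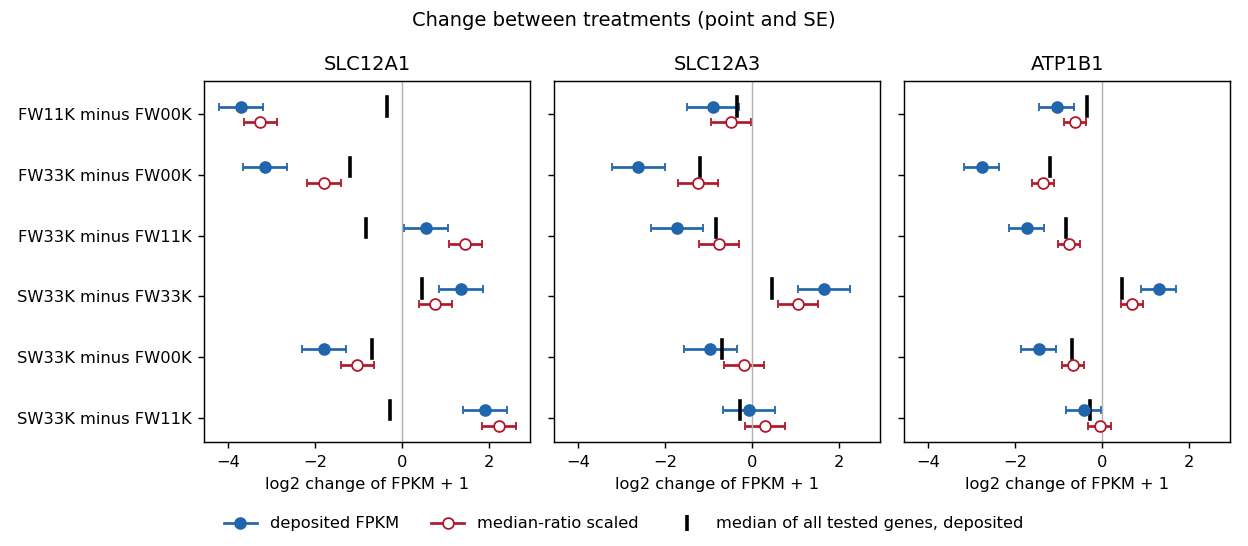
Log2 change of FPKM + 1 (x axis) between treatments (y axis) for *SLC12A1*, *SLC12A3* and *ATP1B1*, with the SE as bars, filled for deposited values and open after median-ratio scaling, and the median of all tested genes as a black mark. *SLC12A1* shows its largest fall in FW11K minus FW00K (-3.70), while *SLC12A3* and *ATP1B1* show theirs in FW33K minus FW00K (-2.61 and -2.76).

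The ratio of 2 genes within a library does not depend on how that library is scaled, and it shows whether the genes moved by the same factor. The ratio of *ATP1B1* to *SLC12A1* was 9.27, 8.38 and 8.69 in SW33K, 6.54, 6.97 and 6.83 in FW00K, 33.5, 60.4 and 52.3 in FW11K, and 15.0, 7.60 and 7.27 in FW33K. The transcript of the pump subunit thus exceeded that of the cotransporter by more at 11 g/L than in any other treatment, with no overlap, and the FW00K libraries were the lowest. The 4 treatments differed by an exact permutation test of the F statistic over all 15400 ways to part the libraries into 4 groups of 3 (F = 35.5, p = 0.00396, adjusted over 3 ratios 0.0119). With replicates 2 and 3 averaged the adjusted p of the exact permutation test was 0.2. For single pairs of treatments the exact test of 3 against 3 libraries cannot go below a two-sided p of 0.1, which the FW11K ratio reached against each of the other treatments.

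The ratio of *SLC12A3* to *SLC12A1* was 1.79, 2.48 and 2.58 in SW33K, 1.41, 1.17 and 1.17 in FW00K, 1.87, 22.6 and 20.2 in FW11K, and 2.76, 1.53 and 1.54 in FW33K. Replicates 2 and 3 of FW11K stood far above the other libraries, and the 3 FW00K libraries lay below all others without overlap, at the smallest exact p of 0.1 against each treatment. The 4 treatments did not differ past the threshold of 0.05 (exact permutation F = 4.37, p = 0.0560, adjusted p = 0.0841). Without replicate 1 of FW11K they did (F = 74.5, adjusted p = 0.00253 in the exact permutation test). FW11K then rested on replicates 2 and 3 alone, whose independence of each other was not tested. *SLC12A3* was thus the higher of the 2 cotransporters in every one of the 12 libraries. The ratio of *ATP1B1* to *SLC12A3* was 5.18, 3.39 and 3.37 in SW33K, 4.62, 5.98 and 5.83 in FW00K, 17.9, 2.67 and 2.59 in FW11K, and 5.45, 4.97 and 4.71 in FW33K. Its geometric means of 3.90, 5.44, 4.98 and 5.03 lay close together and no difference was detected (exact permutation F = 0.192, p = 0.943, adjusted p = 0.943), but the FW11K mean joined 1 value of 17.9 with values of 2.67 and 2.59. Without replicate 1 of FW11K the exact permutation test gave F = 10.1 and an adjusted p of 0.0118, again with FW11K resting on replicates 2 and 3 alone.

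**Figure D3:**
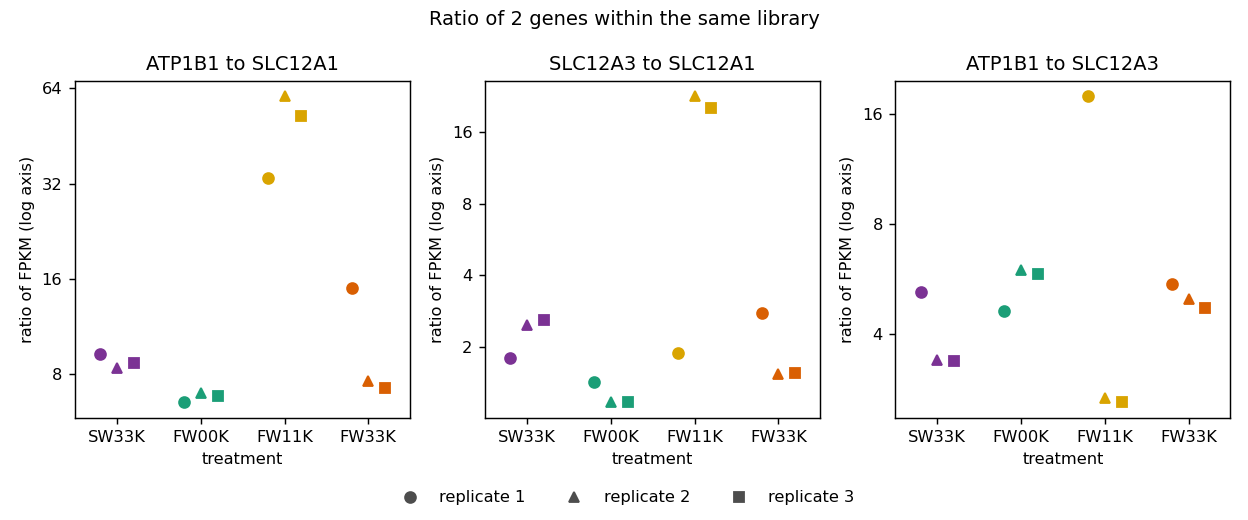
Ratio of the FPKM of 2 genes within each library (y axis, log scale), by treatment (x axis), with a shape for each replicate. The ratio of *ATP1B1* to *SLC12A1* is 33.5 to 60.4 in FW11K and 6.54 to 15.0 in the other 9 libraries, and replicate 1 of FW11K lies apart from replicates 2 and 3 in all 3 panels.

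Replicate 1 of FW11K was high in *SLC12A1*, at 2.69 times the mean of replicates 2 and 3, and in *ATP1B1*, at 1.60 times, while it held 0.236 times their *SLC12A3*. The median gene of that library was at 0.854 times, so the 3 genes departed from the rest of their library in opposite directions. In FW33K, replicate 1 held 0.374, 0.672 and 0.757 times the mean of the others for *SLC12A1*, *SLC12A3* and *ATP1B1*, where the median gene was at 0.676. In FW00K the 3 values were 0.999, 1.21 and 0.946. Replicates 2 and 3 differed by 0.335% to 13.6% in these 3 genes.

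Gene symbols were known for 1386 identifiers, nearly all from a list that the study chose on these same samples as salt-responsive, so counts of called genes below are not independent evidence of a direction. The study names *SLC12A3* and *ATP1B1* on that list, so their own calls above are not independent evidence either. Of 10 symbols of the SLC12 family, 4 were matched, and all 4 were called lower in FW33K than in FW00K, where 49.6% of all tested genes were. After median-ratio scaling 3 were called lower, where 7.4% of tested genes were. Besides the 2 sodium-coupled members these were *SLC12A4*, a potassium chloride cotransporter that sets cell volume in mammals, and *SLC12A8*, a more distant relative. *SLC12A4* had 2.71, 3.62 and 3.03 FPKM in FW33K, against 15.5, 23.2 and 22.3 FPKM in FW00K, a log2 change of -2.36 ± 0.29 (adjusted p = 7.87e-05, limma). *SLC12A8* had 1.14, 1.36 and 1.20 FPKM in FW33K, against 17.8, 10.8 and 9.85 FPKM in FW00K (-2.59 ± 0.30, adjusted p = 6.54e-05). At 11 g/L, *SLC12A8* was also called lower than at 0 g/L (-2.43 ± 0.30, adjusted p = 0.00121), and *SLC12A4* had a change of -1.29 ± 0.29 (adjusted p = 0.0120). The median change of the 4 matched genes was -2.60 in FW33K minus FW00K and -1.86 in FW11K minus FW00K, and -1.38 and -1.43 after median-ratio scaling. *SLC12A1* and *SLC12A3* held most of the FPKM of these 4 in each library.

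Across the 12 libraries, which share their treatments, Pearson's r of log2(FPKM + 1) after median-ratio scaling is given as a description. Between *ATP1B1* and the cotransporters it was 0.529 for *SLC12A1* and 0.402 for *SLC12A3*, and between the cotransporters it was 0.1796.

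In which tubule segment the genes listed as distal nephron partners were expressed was not tested. Of these 24 symbols, 4 were matched, of which 2 were called lower in FW33K than in FW00K and 2 were not called, a share near the 49.6% of all tested genes. After median-ratio scaling 1 was called lower (*NR3C2*) and 2 higher, where 7.4% and 11.6% of tested genes were, and the median change was -0.02. *KCNJ15*, an inwardly rectifying potassium channel, had 14.4, 6.90 and 6.37 FPKM in FW33K, against 72.1, 66.1 and 68.2 FPKM in FW00K, and was called lower (-2.86 ± 0.61, adjusted p = 0.00159, limma), though not after median-ratio scaling (adjusted p = 0.0612). The ratio of *KCNJ15* to *SLC12A1* within a library was 1.88 to 2.42 in FW11K, against 0.461 to 0.503 in FW00K. It was 0.450 to 0.837 in SW33K and spread from 0.309 to 1.82 in FW33K. *NR3C2*, the mineralocorticoid receptor, was called lower in both FW33K (-2.36 ± 0.26, adjusted p = 5.42e-05) and FW11K (-1.83 ± 0.26, adjusted p = 0.00207) against FW00K. Its levels were low, at 0.345 to 0.541 FPKM in FW33K and 0.953 to 1.31 FPKM in FW11K, against 5.79 to 6.69 FPKM in FW00K. *POU3F3 (2 of 2)*, a transcription factor of distal tubule development in mammals, was not called on the deposited values (0.34 ± 0.41, adjusted p = 0.448) and was called higher after median-ratio scaling, which takes out the shift of all genes (adjusted p = 0.00951), as was *IRX3*, another transcription factor (1.48 ± 0.22, adjusted p = 0.000593).

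Of 14 symbols of kinases and other regulators of SLC12 transport, 8 were matched. Of these, 4 were called lower in FW33K than in FW00K, which are *SGK1*, *NEDD4L*, *WNK1 (1 of 2)* and *WNK4*, again a share near the 49.6% of all tested genes. After median-ratio scaling 1 was called lower (*WNK1 (1 of 2)*) and 1 higher (*SGK3*, an SGK1 relative), where 7.4% and 11.6% of tested genes were. In FW11K minus FW00K, *NEDD4L* (-1.32 ± 0.26, adjusted p = 0.00675) and *WNK4* (-1.94 ± 0.28, adjusted p = 0.00217) were called lower on the deposited values, as were 4.17% of tested genes. After median-ratio scaling, where 3.83% were, *WNK4* (adjusted p = 0.00784) and *WNK1 (1 of 2)* (adjusted p = 0.00249) were called lower in limma. *NEDD4L* then was not called (adjusted p = 0.0222). The deposited levels of *WNK4* were low, at 0.312 to 1.53 FPKM in FW11K, against 4.58 to 7.09 FPKM in FW00K. *OXSR1*, the kinase OSR1 that phosphorylates both cotransporters in mammals and the most abundant regulator on the list, had 57.5, 101 and 95.9 FPKM in FW33K, against 91.4, 143 and 143 FPKM in FW00K, with overlap (-0.57 ± 0.33, adjusted p = 0.128). Its direction turned after median-ratio scaling, at 0.82 ± 0.23 (adjusted p = 0.0192, limma), without a call. The scaled values were 123 to 149 in FW33K, against 54.0 to 95.1 in FW00K.

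**Figure D4:**
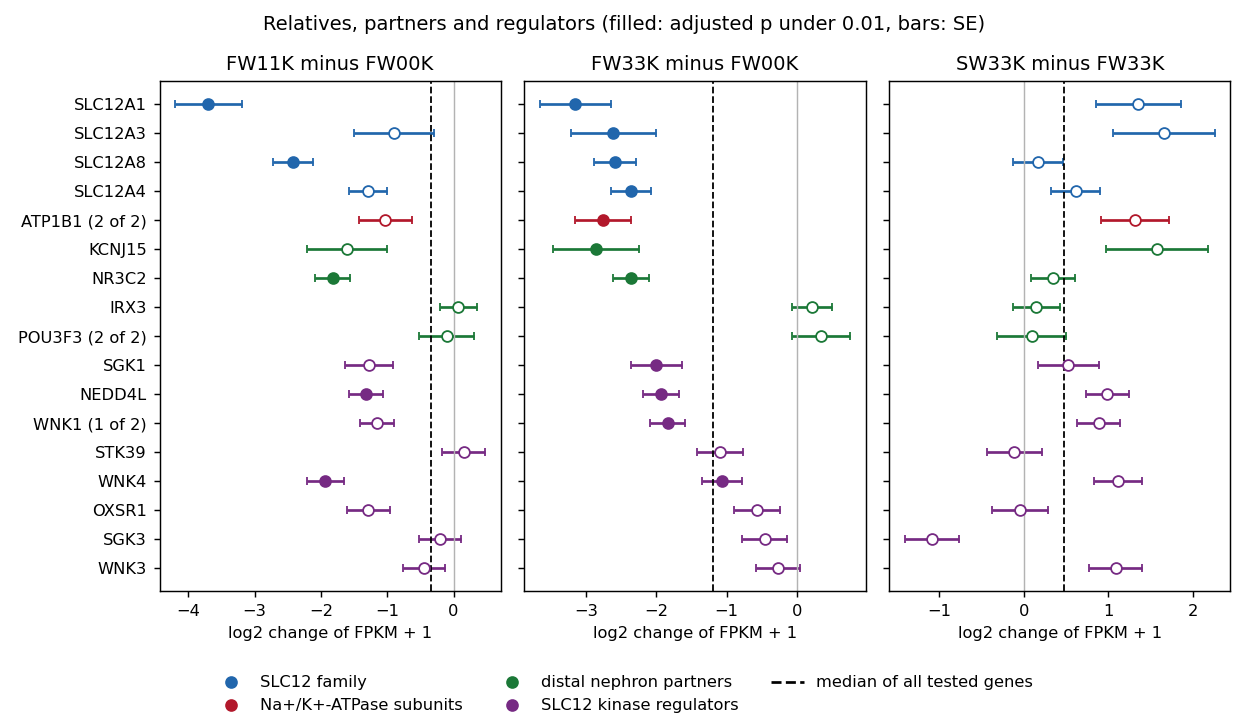
Log2 change of FPKM + 1 (x axis, SE as bars) of the matched SLC12 family members, *ATP1B1*, distal nephron partners and kinase regulators (y axis) in 3 comparisons, filled where the adjusted p is under 0.01, with the median of all tested genes as a dashed line. In FW33K minus FW00K the SLC12 genes and *ATP1B1* lie between -3.15 and -2.36, to the left of the median of -1.20.

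Matched markers of the proximal tubule and of podocytes were lower in FW33K than in FW00K, as the 3 genes were, and those of blood were in part. Markers did not follow the 3 genes in every comparison. For the proximal tubule, 7 of 25 symbols were matched to 9 genes, and all 9 were called lower in FW33K than in FW00K (49.6% of all tested genes), with a summed level of 102 to 163 FPKM in FW33K, against 1443 to 1519 FPKM in FW00K. *SLC22A7 (2 of 2)* was the largest part of this sum in each library, with 75.1 to 127 FPKM in FW33K and 861 to 876 FPKM in FW00K. *MIOX*, inositol oxygenase, fell most in this list (-7.21 ± 0.48, adjusted p = 7.20e-06, limma), and *SLC34A1*, the phosphate cotransporter of the proximal tubule, fell by 3.70 (adjusted p = 0.000136). For glomerular podocytes, 3 of 9 symbols were matched to 4 genes, with a sum of 26.9 to 30.3 FPKM in FW33K, against 224 to 293 FPKM in FW00K, and all 4 were called lower, with *NPHS1* (nephrin) at -3.89. After median-ratio scaling all of these proximal and podocyte genes were still called lower, where 7.4% of tested genes were. The scaled proximal sum was 218 to 242 in FW33K, against 853 to 1008 in FW00K. The scaled podocyte sum was 43.5 to 57.5 in FW33K, against 132 to 194 in FW00K. In FW11K the proximal sum was 650 to 1079 FPKM and the podocyte sum 82.4 to 90.2 FPKM, and in SW33K they were 240 to 853 FPKM and 26.8 to 106 FPKM. For blood and haematopoietic cells, which teleost kidney holds in number, 4 of 21 symbols were matched, with a sum of 73.1 to 98.0 FPKM in FW33K, against 523 to 540 FPKM in FW00K, and with 410 to 980 FPKM in FW11K and 61.4 to 103 FPKM in SW33K. *CORO1A* held most of this sum in each library. In FW33K minus FW00K, 3 of the 4 were called lower on both scales (49.6% and 7.4% of tested genes), and *SPTB* was not called (-0.31 ± 0.49, adjusted p = 0.565, limma). On the deposited values the blood list thus stood near the FW33K level in SW33K. After median-ratio scaling its sum was 86.6 to 108 in SW33K, below the 141 to 156 in FW33K, against 309 to 360 in FW00K. In FW11K minus FW00K the blood list had a median change of 0.37 with none of its 4 genes called, where the 3 transport genes had negative changes. *SPTB* stood at 1.58 ± 0.49 there (adjusted p = 0.0459, limma), with every FW11K library above every FW00K library, as for 6.97% of tested genes. The proximal and podocyte lists did fall in that comparison. Of the 9 proximal genes 4 were called lower, at a median change of -1.77, where 4.17% of tested genes were. Of the 4 podocyte genes 2 were called lower, at a median of -1.68. After median-ratio scaling the same numbers were called lower, at medians of -1.35 and -1.25, where 3.83% of tested genes were. *MIOX*, at 0.49 (adjusted p = 0.523, limma), was the only proximal gene with a positive change. The 1 matched gene of the ionocyte and collecting duct list, *SLC4A1 (1 of 2)*, also marks red blood cells and was named among blood markers in the plan. It had 2.63 to 62.2 FPKM in FW33K and 109 to 156 FPKM in FW11K, against 19.7 to 20.1 FPKM in FW00K. It was not called in FW33K minus FW00K, at 0.21 ± 0.83 (adjusted p = 0.821, limma). After median-ratio scaling *SLC4A1 (1 of 2)* and *SPTB* had positive changes in FW33K minus FW00K, 1.49 and 0.85, without a call. No matched marker was at 0 in all libraries. The part of these cell types in the values of *SLC12A1*, *SLC12A3* and *ATP1B1* was not tested.

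Likeness of pattern was measured as Pearson's r of log2(FPKM + 1) over the 12 libraries after median-ratio scaling, among 1333 tested genes with a symbol, and is given as a description. The genes most like *SLC12A1* were *FZD3 (2 of 2)*, a Wnt receptor (r = 0.937), *PTPRD (2 of 2)*, a receptor tyrosine phosphatase (r = 0.927), and *GRAMD1B*, a sterol transfer protein (r = 0.920). *FZD3 (2 of 2)* had a mean of 2.51 FPKM in FW11K and 3.41 FPKM in FW33K, against 13.5 FPKM in FW00K. The genes most like *SLC12A3* were *COX6A2*, a subunit of cytochrome c oxidase (r = 0.851), *GPT (1 of 2)*, an alanine aminotransferase (r = 0.833), and *CHTF8*, a cohesion factor (r = 0.831). *CHTF8* ran from 13.3 to 33.3 FPKM at 11 g/L, and had a mean of 2.92 FPKM in FW33K, against 28.9 FPKM in FW00K. The genes most like *ATP1B1* were *TINAGL1*, a matrix protein (r = 0.986), *UCP1*, a mitochondrial uncoupling protein (r = 0.979), and *NAV1 (1 of 2)*, a neuron navigator (r = 0.974). *TINAGL1* had a mean of 28.8 FPKM in FW11K and 7.28 FPKM in FW33K, against 67.0 FPKM in FW00K, and its r with *ATP1B1* was the second highest of all tested genes. Among all tested genes *FZD3 (2 of 2)* held place 15 for *SLC12A1* and *COX6A2* place 33 for *SLC12A3*. The genes placed above them had no symbol here.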

How the data were processed

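Kidney RNA of 12 fish was sequenced by the study. Per the labels and the study's methods, the authors dropped reads holding a base of quality below 20, cut the rest to 75 bases, mapped them with TopHat2 2.0.3 on BROADS1, whose known polymorphic sites had been masked, and estimated the deposited FPKM of Ensembl genes with Cufflinks 2.0.2. FPKM carry no read counts, so no count model was used.

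Genes averaging 1 FPKM or more were fitted with limma 3.58.1 (lmFit, eBayes with a trend) in R 4.3.3 on log2(FPKM + 1), a scale that understates changes of low genes. One mean was fitted per treatment over 12 libraries, with Benjamini-Hochberg adjustment over 15503 genes and a threshold of 0.01. Ratios used exact permutation tests in Python 3.11.15 with numpy 2.4.6, threshold 0.05. Figures were drawn with matplotlib 3.10.9. Both tests were tested on simulated data with independent replicates and no shift of whole libraries. The closeness of replicates 2 and 3 was thus not covered.

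The 3 genes, the gene lists and the alternatives were chosen with earlier results of these data known. The comparison of SW33K with FW11K was an addition made once the data had been seen. Genes named are the 3 genes, every matched copy of the SLC12 family and of the Na+/K+-ATPase subunits, of other lists the 2 most abundant and the 2 with the largest change in FW33K minus FW00K, of which a part is printed, and for each of the 3 genes the 3 named genes of most similar pattern. Other members of a list stand beside its count and were chosen after their values were seen. Some genes of these lists are not reported here. Symbols are those the study pairs with an identifier, and all 1386 such identifiers were in the table. No coordinates or sequences were used here. The study's methods name the 3 replicates as separate fish.

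Deviations from the treatment mean were correlated between same-numbered replicates. The r was 0.25 to 0.38 between FW33K and FW11K, 0.14 to 0.35 between SW33K and FW33K, and 0.28 to 0.42 between SW33K and FW00K. Elsewhere r was 0.099 to 0.30 (FW33K and FW00K), -0.03 to 0.14 (FW11K and FW00K) and -0.05 to 0.15 (SW33K and FW11K). The 3 deviations within a treatment depend on each other, so the 3 pairs are not separate evidence. Pairs of unlike number were not computed. The labels do not say that a number marks a shared batch. The replicate block changed no call of the 3 genes. Alternatives were another pseudocount, other filters, median-ratio scaling, quantile normalization, the libraries compared only, the replicate block, averaging replicates 2 and 3, another threshold and leaving out each library.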

Additional observations from a re-analysis of the deposited data

How the results depend on the processing

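Of 378 log2 changes of *SLC12A1*, *SLC12A3* and *ATP1B1* recomputed under alternatives, 335 kept their direction and their side of the threshold, 24 lost a call, 11 gained one and 8 turned sign. Those 8 were all of *SLC12A3* or *ATP1B1* in SW33K minus FW11K, where neither gene was called. Why the values below moved was not tested.

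Median-ratio scaling gave -1.23 for *SLC12A3* in FW33K minus FW00K, -0.75 for *ATP1B1* in FW33K minus FW11K, and 2.24 for *SLC12A1* and 0.30 for *SLC12A3* in SW33K minus FW11K. Quantile normalization gave -1.65 for *ATP1B1* in FW11K minus FW00K (adjusted p = 0.00600, limma), -1.75 for *SLC12A3* in FW33K minus FW00K (0.0128), -0.73 for *ATP1B1* in FW33K minus FW11K, -1.49 for *ATP1B1* in SW33K minus FW00K, and 2.21, 0.43 and 0.16 for *SLC12A1*, *SLC12A3* and *ATP1B1* in SW33K minus FW11K. With replicates 2 and 3 averaged, the changes were -3.48 for *SLC12A1* in FW11K minus FW00K, -2.75 for *SLC12A3* in FW33K minus FW00K and -1.91 for *ATP1B1* in FW33K minus FW11K, and F was 14.3 for the ratio of *ATP1B1* to *SLC12A1*. With that averaging and median-ratio scaling together, no call of the 3 genes held: *SLC12A1* had -2.99 in FW11K minus FW00K and -1.91 in FW33K minus FW00K, *SLC12A3* -1.26 and *ATP1B1* -1.30 in FW33K minus FW00K, *ATP1B1* -0.87 in FW33K minus FW11K, and *SLC12A3* 0.43 in SW33K minus FW11K.

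Leaving out 1 library at a time gave the following ranges. *SLC12A1* ran -4.14 to -3.43 in FW11K minus FW00K, -2.07 to -1.26 in SW33K minus FW00K and 1.63 to 2.44 in SW33K minus FW11K. *SLC12A3* ran -2.72 to -2.43 in FW33K minus FW00K, -2.40 to -1.37 in FW33K minus FW11K, 1.30 to 2.36 in SW33K minus FW33K and -0.74 to 0.64 in SW33K minus FW11K, where it was positive without FW11K replicate 2 (0.27), FW11K replicate 3 (0.29) or SW33K replicate 1 (0.64). *ATP1B1* ran -1.84 to -1.50 in FW33K minus FW11K, 1.05 to 1.82 in SW33K minus FW33K, -1.71 to -0.94 in SW33K minus FW00K and -0.67 to 0.093 in SW33K minus FW11K, positive without SW33K replicate 1. F ran 2.31 to 74.5 for *SLC12A3* to *SLC12A1*, 22.2 to 86.6 for *ATP1B1* to *SLC12A1* and 0.0751 to 10.1 for *ATP1B1* to *SLC12A3*.

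The number of all genes called was 691 in FW11K minus FW00K, and 279 with a pseudocount of 0.1, 346 at a mean of at least 5 FPKM, 1252 after median-ratio scaling, 1149 after quantile normalization, 2375 at a threshold of 0.05 and 21 to 2187 without 1 library. In FW33K minus FW00K it was 7956, and 2943 after median-ratio scaling, 2680 after quantile normalization, 1023 with replicates 2 and 3 averaged and 5254 to 9645 without 1 library. In FW33K minus FW11K it was 3898, and 2230, 1932 and 49 under the same 3 alternatives, 2542 with only the libraries compared, 7718 at 0.05 and 1058 to 6508 without 1 library. In SW33K minus FW33K it was 221, and 662, 500 and 2 under those 3, 7 with only the libraries compared, 1559 at 0.05 and 6 (without FW33K replicate 3) to 3586 without 1 library. In SW33K minus FW00K it was 3381, and 353 with the averaging, 2231 with only the libraries compared, 6310 at 0.05 and 1716 to 4351 without 1 library. In SW33K minus FW11K it was 1961, and 3241, 3116 and 220 under those 3, 630 with only the libraries compared, 3828 at 0.05 and 809 to 3459 without 1 library. With the averaging, limma called 0 genes in FW11K minus FW00K (1918 at an unadjusted p under 0.05), and with median-ratio scaling besides it called 1 gene in FW33K minus FW00K and 0 in the other 5 comparisons (1699 to 3987 at an unadjusted p under 0.05).

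With the replicate block, 768, 8939, 5259, 267, 4091 and 2466 genes were called in the 6 comparisons in the order above, and no call of the 3 genes or their ratios changed. Library quality weights were not run to a result, since their estimation did not converge. Limits that depth sets on single genes are unknown without counts per gene.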
